A study of Homo sapiens with 32 samples.

Results

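Re-expression of SETD2 in a 786-O SETD2 knockout clone was followed in the m6A peak lists of 4 immunoprecipitated (IP) libraries, 2 of the rescued line SETD2KO-1R and 2 of its knockout parent SETD2KO-1. Overlapping peaks of the 4 lists were merged into 59337 regions, and a library called a region if a peak of it overlapped the region by at least 1 bp. A region was gained on rescue if both SETD2KO-1R libraries and neither SETD2KO-1 library called it, and lost on rescue in the reverse case. This gave 1591 gained regions (2.68% of all regions) and 3904 lost regions (6.58%), together 5495 of the 59337, where the 16 IP lists of the whole series merged into 99514 regions.

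786-O is a clear cell renal cell carcinoma (ccRCC) line, SETD2KO-1 is an isogenic clone made from it by CRISPR/Cas9 editing of SETD2, and SETD2KO-1R is that clone with a transgene for tagged SETD2. The study describes the transgene as full-length and its tag as FLAG, while the headers of the rescue lists carry the alias BirASETD2, which the labels do not explain, so the tag is not settled here. The rescued line was itself derived clonally, so it stands for 1 clone, and the labels give none of the cells a treatment. Both carry the SETD2 knockout, and unmodified 786-O (WT), a further knockout clone (SETD2KO-2) and the corresponding 4 lines made from RPTEC, an immortalized line of the renal proximal tubule, with 2 IP libraries for each line, served as the 12 libraries outside the rule. Nothing in the sources used here says that the 2 libraries of a line came from separate cultures, so the p-values below measure a spread between libraries that may be technical.

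N6-methyladenosine (m6A) is the most abundant internal modification of messenger RNA. It is placed by a METTL3 and METTL14 complex on adenosines in a short core sequence, mostly in long internal exons and toward the stop codon, and is read by YTH-domain proteins that affect splicing, stability and translation. SETD2 is the enzyme that trimethylates histone H3 on lysine 36 over transcribed gene bodies, and it is lost in a share of ccRCC tumours. In MeRIP-seq, RNA fragments bound by an antibody against m6A are compared with the Input RNA, so a called peak is a stretch of transcript that was enriched. The lists hold no reads, so a change in how much of an RNA is methylated and a change in how much of that RNA is made cannot be told apart here, and the depth behind each peak is unknown.

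No genome was given, so the bases under most regions are not shown, but some regions covered the first 50 bases of an annotated transcript start of a protein-coding gene, for which RefSeq gives the sequence (GRCh38.p14). The core GGAC followed by A, C or T was searched on the transcript strand of these 50 bases. It occurred in 14.4% of all 22198 start windows, in 13 of the 101 windows covered by gained regions (12.9%), in 32 of the 166 covered by lost regions (19.3%) and in 197 of the 1423 covered by regions called in all 4 libraries (13.8%). The 3 matching windows of each direction whose regions ranked highest by score are printed to show what RNA such a peak covers, as 30 bases with the first match in capitals. A match is a description of the letters and not a measured site.
CARS2 (gained, chr13:110706069-110706098, minus strand): ctgacatgttgaGGACTacgcgcggcccag
MAPK9 (gained, chr5:180292034-180292063, minus strand): ggcagcggcggagaagggagcgGGACCgga
DAPK1 (gained, chr9:87497872-87497901, plus strand): ggagtgtgaggaGGACAgccggaccgagcc
YBX1 (lost, chr1:42682438-42682467, plus strand): tagcgggagcggagagcGGACCccagagag
TMEM214 (lost, chr2:27032965-27032994, plus strand): gcgccGGACCggaaagccggggaagtggcc
NANS (lost, chr9:98056752-98056781, plus strand): cggcggcggcggccGGACCcagactggtag
CARS2 encodes the mitochondrial cysteinyl-tRNA synthetase, MAPK9 a JNK kinase, DAPK1 a death-associated kinase, YBX1 a cold-shock domain protein that binds mRNA, TMEM214 a transmembrane protein and NANS the sialic acid synthase. The CARS2 region was called in no WT or SETD2KO-2 library, nor was that at NANS. The YBX1 region was called in 1 SETD2KO-2 library and in neither WT library.

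The rescue lists held 32016 and 25710 peaks and the parent lists 32739 and 35555. The rescue had fewer peaks by 0.25 on the log2 scale, a difference with p = 0.33 in the two-sided exact permutation test, which is the smallest p that 2 libraries against 2 allow. With peaks under 288 bp left out, the longest of the 4 lists' minimum lengths, the difference was -0.0038 (exact permutation p = 1). SETD2 itself carried 7 and 9 peaks in the rescue, 5 and 10 in the parent, 8 and 10 in WT and 5 and 4 in SETD2KO-2, and none of its 12 regions was gained or lost. Peaks in the gene body do not report on the protein and so do not check the labels. Of 10 renal tubule and ccRCC markers, 9 had a peak in all 4 libraries, and NNMT had one in 3. None of 4 leukocyte, 4 fibroblast and 3 endothelial markers had a peak in any of the 4.

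Lost regions outnumbered gained regions by 1.30 on the log2 scale. Its size and sign depended on the libraries and on the length of the lists. Without SETD2KO-1R replicate 2, the shortest list, there were 8237 gained and 5214 lost regions, a log2 value of -0.66, and without SETD2KO-1R replicate 1 the value was 0.18, but either setting also asks a single rescue library for a call. With the same number of peaks from each library, the 25710 with the highest scores, there were 1860 gained and 2544 lost regions, a log2 value of 0.45. The genes and chromosomes below are read against this excess.

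In length and score gained and lost regions lay near the median of all 59337 regions, and the 10741 regions called in all 4 libraries lay above it. The median length was 503 bp for gained, 462 bp for lost, 800 bp for constant and 434 bp for all regions. A region spans all peaks merged into it, so regions called by more libraries are longer in part by construction. Peaks ranked at a median of 36.7% of their lists by score for gained, 40.0% for lost, 65.6% for constant and 40.9% for all regions. A protein-coding gene body held 78.4% of gained, 78.7% of lost and 89.7% of constant regions, and 11.2%, 11.8% and 4.27% lay in no annotated gene. Among regions inside a single gene of known strand, 21.3% of gained and 15.96% of lost regions lay in the final 10% of the gene, where 26.7% of the constant and 17.2% of all regions lay. The share of all peaks within 1 kb of the gene's 3′ end was 5.91% and 5.79% in the rescue and 5.99% and 5.32% in the parent libraries, which overlapped (exact permutation p = 1). The nearest peak of either library of the other side lay within 500 bp of 15.0% of gained and 12.9% of lost regions, and at 10 kb or more from 32.8% and 39.7%.

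Regions gained on rescue lay in 1165 protein-coding genes, 9.92% of the 11744 with any region, and lost regions in 2365 (20.1%). In 236 genes both occurred. Most genes carried a single one: 1036 genes had exactly 1 gained and 1822 exactly 1 lost region, while 24 genes had 3 or more gained and 172 had 3 or more lost regions. Of the genes with a gained region, 639 also held a region called in all 4 libraries, and so did 1370 of the genes with a lost region. Genes with a gained or a lost region were longer, with medians of 50.1 kb and 55.8 kb against 32.2 kb for all genes with a region, and held more regions, with medians of 5 and 6 against 3.

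SHANK2, which encodes a scaffold of the postsynaptic density, had the most gained regions, 9 of its 66, with none lost. It is a gene of 785 kb on chromosome 11 (70467854 to 71253234). Its rescue libraries held 45 and 39 peaks and its parent libraries 9 and 14. WT, with 13 and 18 peaks, and SETD2KO-2, with 12 and 8, lay near the parent, so the rescue stood above all 6 other 786-O libraries. With the upper 50% of each list by score SHANK2 and DOCK2 had 0 gained regions, ADPRHL1 and RTEL1 had 1, TENM3, RBFOX3 and LOC124900163 had 2, and KIRREL3 had 3. With lists cut to equal length SHANK2 had 9, ADPRHL1, KIRREL3 and DOCK2 had 4, TENM3 and RBFOX3 had 3, and RTEL1 and LOC124900163 had 2. Without SETD2KO-1R replicate 1 SHANK2 had 28 gained regions, TENM3 14, DOCK2 12 and KIRREL3 10. Without SETD2KO-1R replicate 2 SHANK2 had 31, KIRREL3 17, DOCK2 11, ADPRHL1, RTEL1 and TENM3 8 each and RBFOX3 6, and without either rescue library LOC124900163 had 5.
KIRREL3, an immunoglobulin-family adhesion protein, held 20 and 12 peaks in the rescue and 1 and 3 in the parent, with 5 regions gained. Here WT had 9 and 7 peaks and SETD2KO-2 had 2 and 1. The gene was chosen for its gained regions, so rescue above parent was selected, and only WT above SETD2KO-2 lies outside that choice. In the map of peaks along 4 genes, the KIRREL3 peaks of the knockout libraries lay in 1 cluster, apart from 1 parent peak, and WT and rescue libraries called further peaks on both sides of it. The further rescue peaks were mostly not those of WT: of the 5 gained regions, 1 was called in a WT library and 0 in SETD2KO-2.
DOCK2, a Rac activator best known from leukocytes, had 5 gained regions with 12 and 13 peaks against 3 and 1. It stood at 2 and 2 in WT and at 6 and 2 in SETD2KO-2. ADPRHL1, a relative of the ADP-ribosylhydrolases, had 5 gained regions and went from 1 and 2 peaks in the parent to 10 and 6 in the rescue, against 2 to 3 in the other 4 libraries. RBFOX3 and LOC124900163 had 3 gained regions each, as did 16 further genes, PCGF3 among them. RBFOX3, a neuronal splicing regulator, had 9 and 7 against 2 and 4 peaks, with 0 and 2 in WT and 6 and 2 in SETD2KO-2. LOC124900163 had 12 and 11 against 6 and 7, with 8 and 13 in WT and 10 and 6 in SETD2KO-2. Its 3 gained regions lay inside PCGF3 as well, so that the peaks cannot be assigned to either gene. RTEL1, a helicase that protects telomeres, had 18 and 12 against 11 and 8 peaks, with 11 and 8 in WT and 14 and 4 in SETD2KO-2. TENM3, a teneurin adhesion receptor, had 4 gained and 2 lost of its 59 regions and overlapping peak numbers, 35 and 32 in the rescue and 29 and 41 in the parent. In all, KIRREL3 held 25 regions, DOCK2 22, RTEL1 21, LOC124900163 13, ADPRHL1 11 and RBFOX3 10. A gene with more regions has more that can meet the rule.

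ASTN2, which encodes an astrotactin that acts in neuronal migration, had the most lost regions, 14, with none gained. With lists cut to equal length it had 4 lost regions and no longer led, behind SLC4A4 with 9, RXRA and HIPK2 with 7 and TRABD2B with 6, and the other 3 genes named here had 3 or 4. ASTN2 spans 992 kb of chromosome 9 (116423112 to 117415057). Its parent libraries held 30 and 31 peaks and its rescue libraries 8 and 4. WT held 10 and 12 peaks and SETD2KO-2 held 41 and 22. The gene was chosen for its lost regions, so parent above rescue was selected, and only SETD2KO-2 above WT lies outside that choice. Of the 14 lost regions, 1 was called in a WT library and 12 in at least 1 SETD2KO-2 library.
RXRA, the retinoid X receptor alpha gene, lies on the same chromosome and lost 11 regions, with 23 and 27 peaks in the parent and 9 and 3 in the rescue. WT had 14 and 15 peaks, while the SETD2KO-2 libraries lay far apart at 33 and 7. SLC4A4, the sodium bicarbonate cotransporter of the proximal tubule, lost 9 regions and had 18 and 17 peaks in the parent against 7 and 0 in the rescue. WT lay between them at 13 and 10, and SETD2KO-2 had 20 and 18.
KIAA1671 lost 8 regions, at 19 and 19 peaks in the parent against 8 and 5 in the rescue, 11 and 8 in WT and 25 and 20 in SETD2KO-2. PLXDC2, a transmembrane protein with a plexin domain, lost 8 regions and had 15 and 17 peaks in the parent and 1 and 0 in the rescue, with 7 and 9 in WT and 17 and 9 in SETD2KO-2. In both genes each WT library had at most as many peaks as any SETD2KO-2 library. The order of parent and rescue was selected by the choice of the genes. TRABD2B, a protease that inactivates Wnt proteins, lost 10 regions at 23 and 20 against 10 and 5 peaks. ELFN1, a synaptic leucine-rich repeat protein, lost 9 regions at 12 and 12 against 2 and 1 peaks. HIPK2, a kinase that binds homeodomain proteins, lost 8 regions at 28 and 26 against 16 and 8 peaks. WT reached 30 peaks in TRABD2B, 15 in ELFN1 and 29 in HIPK2, so these 3 genes did not separate the libraries by SETD2. Restricted to peaks in the upper 50% by score, lost regions numbered 5 in ASTN2, 4 in TRABD2B, ELFN1 and SLC4A4, 3 in RXRA and HIPK2, 2 in PLXDC2 and 1 in KIAA1671. Without 1 library they numbered up to 24 in ASTN2 (without SETD2KO-1 replicate 2), 18 in RXRA and 16 in PLXDC2 (without SETD2KO-1 replicate 1), 17 in HIPK2 (without SETD2KO-1R replicate 1) and 13 in KIAA1671 (without either SETD2KO-1 library). CNTN6, a gene called on 1 side, also lost 8 regions, of its 13. In all, ASTN2 held 44 regions, RXRA and HIPK2 31 each, TRABD2B 28, KIAA1671 26, PLXDC2 24, SLC4A4 22 and ELFN1 14.

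**Figure D1:**
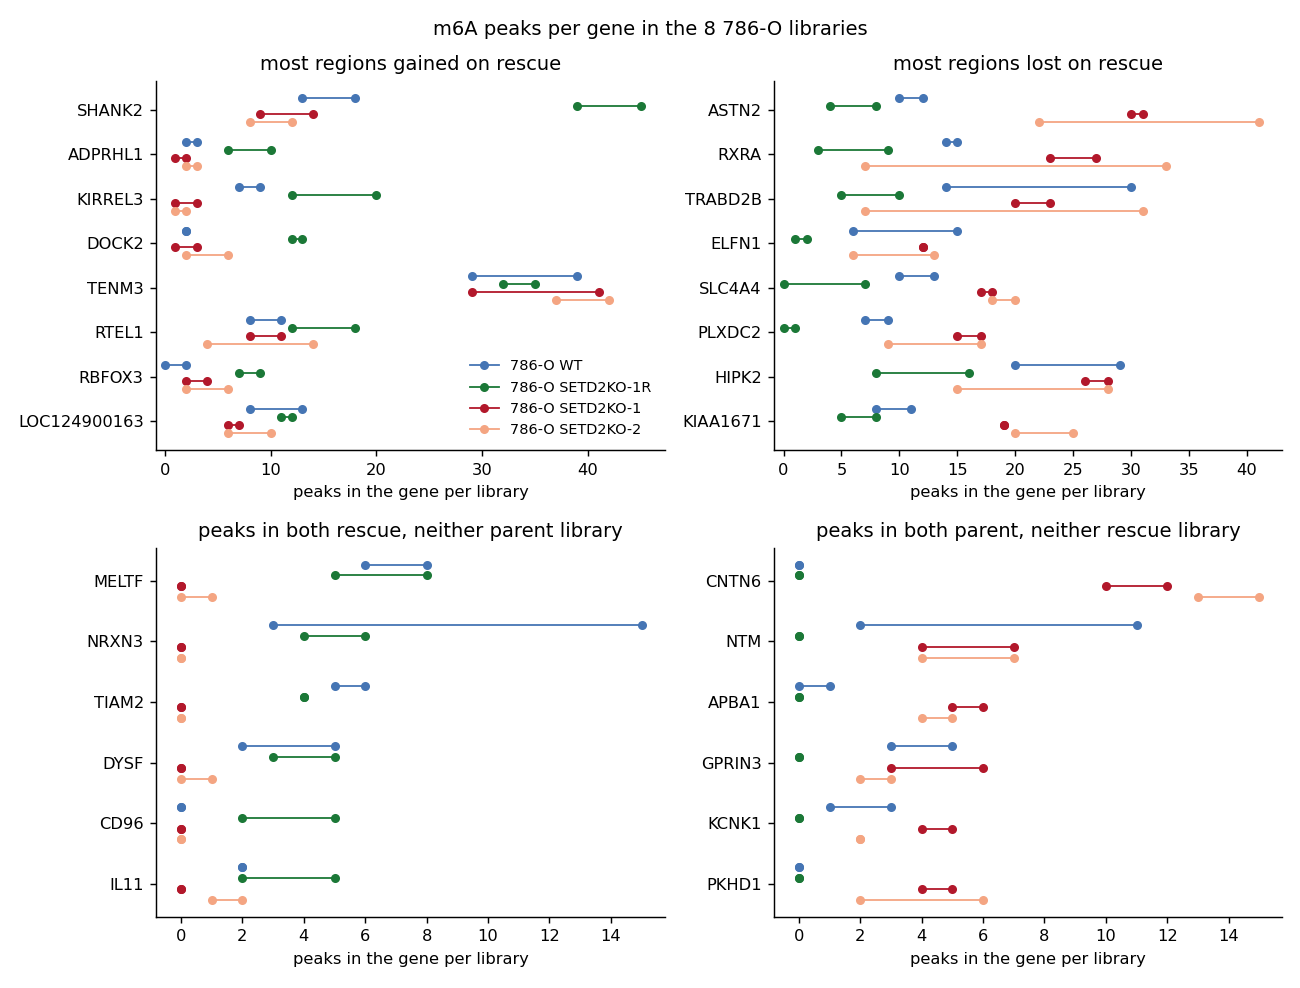
Number of m6A peaks per library (horizontal axis) in the genes with the most gained or lost regions and in the genes called on 1 side of the pair. Each point is 1 of the 8 786-O libraries and a line joins the 2 libraries of a cell line; SHANK2 has 45 and 39 peaks in the rescue and 9 and 14 in the parent, and CNTN6 has 10 to 15 peaks in all 4 knockout libraries and 0 in the other 4.

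**Figure D2:**
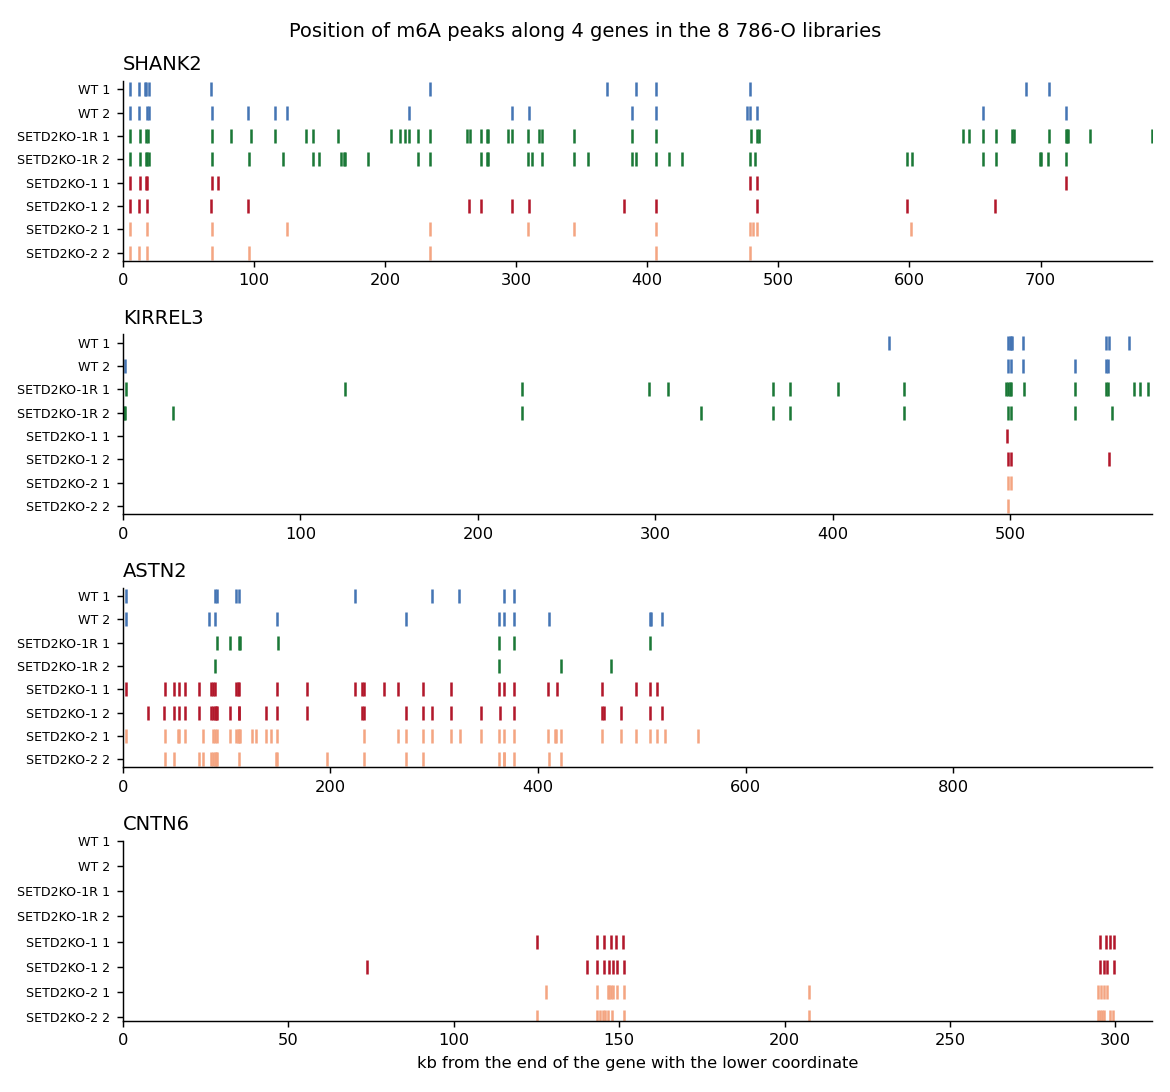
Midpoints of m6A peaks (vertical ticks) along SHANK2, KIRREL3, ASTN2 and CNTN6 in kb from the end of the gene with the lower coordinate, 1 row for each 786-O library. Rescue libraries carry additional ticks along SHANK2 and KIRREL3, knockout libraries carry additional ticks over part of ASTN2, and CNTN6 has ticks in knockout libraries alone.

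At the level of whole genes, 276 protein-coding genes (2.35% of those with a region) had a peak in both rescue and neither parent library, and 421 (3.58%) had a peak in both parent and neither rescue library. Leaving out 1 library gave 535 to 646 and 691 to 1345 such genes. With lists cut to equal length the counts were 415 and 339, so the side with more genes turned.
MELTF, the iron-binding melanotransferrin, led the first group with 8 and 5 peaks in the rescue and none in the parent. WT had 6 and 8 MELTF peaks and SETD2KO-2 had 1 and 0. NRXN3, a neurexin, had 6 and 4 peaks in the rescue, 3 and 15 in WT and none in any of the 4 knockout libraries. TIAM2, a Rac exchange factor, had 4 and 4 in the rescue, 5 and 6 in WT and none in the knockout libraries. DYSF, the membrane-repair protein dysferlin, had 5 and 3 in the rescue, 2 and 5 in WT and 1 and 0 in SETD2KO-2. A stretch of chromosome 3 that holds CD96, an immunoglobulin receptor of T and NK cells, and ZBED2, a zinc finger gene inside it on the other strand, had 2 and 5 peaks in the rescue and none in the other 6 786-O libraries. Both of its gained regions lay in ZBED2 as well as CD96, so they cannot be assigned to either, and they were called in 6 and 8 of the 8 RPTEC libraries. IL11, a cytokine, had 2 and 5 in the rescue, 2 and 2 in WT and 2 and 1 in SETD2KO-2. The first 4 of these 6 genes thus had peaks in both WT libraries and at most 1 in a library of SETD2KO-2, the stretch of CD96 and ZBED2 was called among 786-O lines in the rescue alone, and IL11 was missing among them from the parent alone.

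CNTN6, a contactin of neuronal membranes, led the other group. Its parent libraries held 10 and 12 peaks and SETD2KO-2 held 13 and 15, while the rescue and WT libraries held none. Its 8 lost regions lay in 2 stretches of chromosome 3, from 1236009 to 1244597 and from 1387417 to 1392787, and each was called in at least 1 SETD2KO-2 library. No RPTEC library had a CNTN6 peak. PKHD1, the gene of autosomal recessive polycystic kidney disease, had 5 and 4 peaks in the parent, 2 and 6 in SETD2KO-2 and none in rescue or WT. APBA1, a neuronal adaptor, had 5 and 6 in the parent, 4 and 5 in SETD2KO-2 and 1 and 0 in WT. NTM, a neural cell adhesion protein, had 4 and 7 in the parent and 2 and 11 in WT. GPRIN3 had 3 and 6 in the parent and 3 and 5 in WT, and KCNK1, a potassium leak channel, had 4 and 5 in the parent and 1 and 3 in WT. CNTN6, PKHD1 and APBA1 therefore had few or no WT peaks, while NTM, GPRIN3 and KCNK1 were missing among the 786-O lines from the rescue alone.

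The WT and SETD2KO-2 libraries were not used to choose these genes. Of the 276 genes with peaks in the rescue and not in the parent, 35 (12.7%) had a peak in both WT and neither SETD2KO-2 library and 2 (0.725%) had the reverse. Of the 421 genes with peaks in the parent and not in the rescue, 17 (4.04%) and 53 (12.6%) did. Over all 11744 genes with a region the shares were 2.07% and 2.17%. The 35 and 53 genes were thus called in all 4 libraries of 1 SETD2 state and none of the other. Most of the 276 and 421 genes did otherwise. No peak in WT or SETD2KO-2 was found for 27.5% of the 276 genes, 6.41% of the 421 and 5.31% of all genes with a region, and peaks in all 4 of these libraries for 10.9%, 25.7% and 63.6%.
Among the 35, after NRXN3 and TIAM2, the gene with the most peaks was GLI2, a Hedgehog transcription factor, with 2 and 4 in the rescue and 6 and 5 in WT, followed by EVC2, a Hedgehog pathway component of the cilium, with 1 and 1 in the rescue and 5 and 5 in WT. Among the 53, after CNTN6 and PKHD1, came TSHZ2, a zinc finger homeobox factor, with 5 and 2 peaks in the parent and 2 and 6 in SETD2KO-2, and PPM1L, a protein phosphatase, with 3 and 4 in the parent and 4 and 3 in SETD2KO-2. These genes were named after their values were seen. RPTEC did not follow 786-O at PKHD1, where WT had 13 and 13 peaks, SETD2KO-1 had 10 and 14, SETD2KO-2 had 2 and 3 and SETD2KO-1R had 1 and 1.

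EIF5B, a translation initiation factor, held the top gained region (chromosome 2, 99363363 to 99363660), at a mean rank of 99.8% of the lists. It was followed by regions in YBX3, a cold-shock domain protein (chromosome 12, 10699609 to 10699934), SUPT16H, a subunit of the FACT histone chaperone (chromosome 14, 21352777 to 21353099), PDIA3, a disulfide isomerase (chromosome 15, 43746078 to 43746530), and KLC1, a kinesin light chain (chromosome 14, 103654285 to 103654606). The YBX3 region was called in both WT, both SETD2KO-2 and all 8 RPTEC libraries, so the parent alone lacked it, and the KLC1 region was called in both SETD2KO-2 and neither WT library.
Among lost regions the top one lay in ARGLU1, a splicing-associated protein (chromosome 13, 106559558 to 106559921), at a mean rank above 99.9%, and it was called in no WT or SETD2KO-2 library. The next were in YWHAE, an adaptor that binds phosphoserine (chromosome 17, 1365032 to 1365329), PTMA, the prothymosin alpha gene (chromosome 2, 231712593 to 231712901), PGD, an enzyme of the pentose phosphate pathway (chromosome 1, 10411145 to 10411460), and PPP1R9B, a scaffold of protein phosphatase 1 (chromosome 17, 50136135 to 50136463). The YWHAE and PTMA regions were called in both WT and both SETD2KO-2 libraries, so among the 786-O lines they were missing from the rescue alone, while 3 and 4 of the 8 RPTEC libraries called them. These 10 regions were 298 to 453 bp long, below the medians of their classes, and the order by SETD2 state was not seen in them.

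Chromosomes carried gained and lost regions unevenly. Chromosome 9 had the largest excess of lost regions, 349 lost (10.8% of its 3225 regions) against 49 gained (1.52%), a log2 value of 2.83. Chromosome 8 had 204 lost and 32 gained (2.67) and chromosome 3 had 276 lost and 50 gained (2.46). Chromosome 14 was the one chromosome of 23 with more gained than lost regions, 73 against 60 (-0.28), and chromosomes 19 (155 gained, 181 lost, 0.22) and 11 (124 gained, 145 lost, 0.23) came next. Lost regions outnumbered gained ones on 15 chromosomes with lists cut to equal length, on 16 with peaks of at least 288 bp, on 15 without SETD2KO-1R replicate 1 and on 3 without SETD2KO-1R replicate 2. Without SETD2KO-1R replicate 2 the values of chromosomes 9, 8 and 3 were 0.69, 0.43 and 0.08, and without SETD2KO-1R replicate 1 they were 1.24, 0.90 and 0.78. Against the value for the whole genome, chromosomes 9, 8 and 3 stood higher by 1.54, 1.38 and 1.17 and chromosomes 14, 19 and 11 lower, at -1.58, -1.07 and -1.07. In 10 alternatives, leaving out each library among them, the relative value of chromosome 9 was 1.06 to 2.37, that of chromosome 8 was 0.72 to 1.43 and that of chromosome 3 was 0.36 to 1.14. It was -1.63 to -1.16 for chromosome 14, -1.19 to -0.51 for chromosome 19 and -1.08 to -0.40 for chromosome 11, so these relative positions did not turn. The plain log2 values of chromosomes 11 and 19 turned negative with lists cut to equal length, where that of chromosome 14 stayed negative (-0.94). With 1 library left out the value of chromosome 14 ran from -1.95 to 1.01. Chromosomes 3, 8 and 9 held 14.3% of all regions, 21.2% of all lost and 8.23% of all gained regions, and without them 3075 lost and 1460 gained regions remained.

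**Figure D3:**
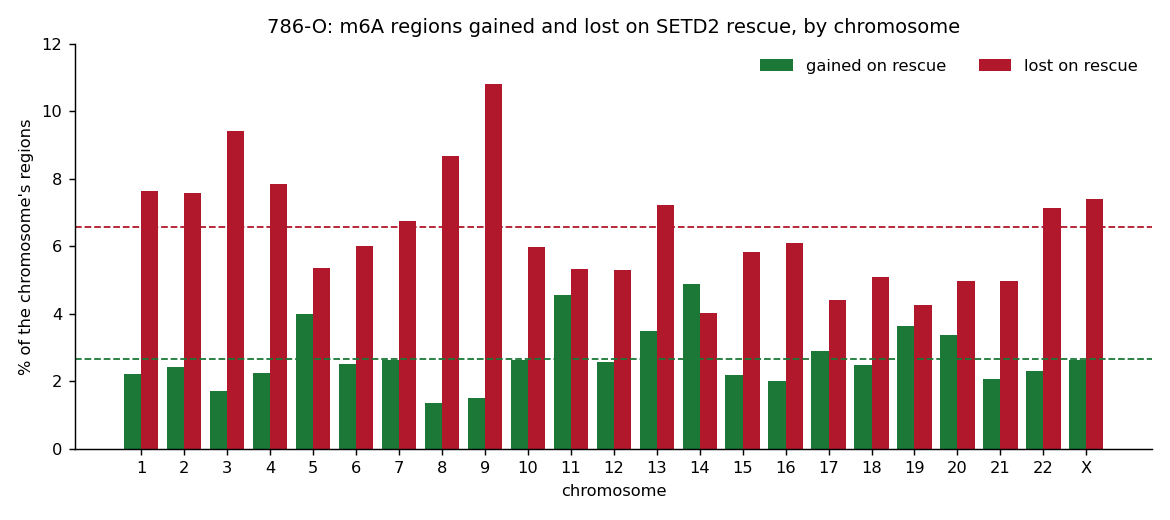
Share of each chromosome's regions that was gained (green) or lost (red) on rescue, in % of the regions on that chromosome, for chromosomes 1 to 22 and X. Dashed lines mark the shares over these chromosomes together; chromosome 9 has the highest lost share, 10.8%, and chromosome 14 the highest gained share, 4.89%.

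The share of a library's peaks on a chromosome is relative to the length of its list. Chromosome 9 held 4.66% and 4.48% of rescue peaks and 6.21% and 5.99% of parent peaks. WT, at 5.04% and 5.01%, lay near the rescue and SETD2KO-2, at 6.15% and 5.92%, lay with the parent. Chromosome 8 was alike, at 3.45% and 3.57% in the rescue, 4.40% and 4.33% in the parent, 3.62% and 3.74% in WT and 4.22% and 4.45% in SETD2KO-2.
Chromosome 3 differed from these: the rescue had 4.38% and 4.29%, and the parent (5.08% and 5.26%), WT (5.08% and 5.05%) and SETD2KO-2 (4.81% and 5.39%) all lay above it. On chromosome 14 the rescue had 2.87% and 2.98%, above the 2.09% to 2.26% of the other 6 libraries. On chromosome 19 the rescue had 8.42% and 8.56%, above the 6.62% to 7.45% of the other 6. Chromosome 11 had 4.89% and 4.61% in the rescue, 4.57% and 4.60% in WT, 4.23% and 4.18% in the parent and 4.22% and 3.63% in SETD2KO-2.
The rescue libraries both lay above both parent libraries on 11 of 23 chromosomes (47.8%) and below on 10 (43.5%), which makes the 6 named chromosomes cases of a pattern that nearly all shared. On 5 of the 10 lower chromosomes WT was also below both knockout clones and on 3 it was above both. On 4 of the 11 higher ones WT was above both clones and on 0 below both. In RPTEC the rescue and parent shares overlapped on chromosome 9, at 4.53% and 4.46% against 4.51% and 4.53%, and also on chromosomes 3 and 11. The rescue was lower on chromosome 8 (3.50% and 3.34% against 3.87% and 3.89%). It was higher on chromosome 19 (7.12% and 7.28% against 5.59% and 6.67%) and on chromosome 14 (2.96% and 3.01% against 2.89% and 2.82%). With 2 libraries a side the smallest two-sided exact permutation p is 0.33.

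**Figure D4:**
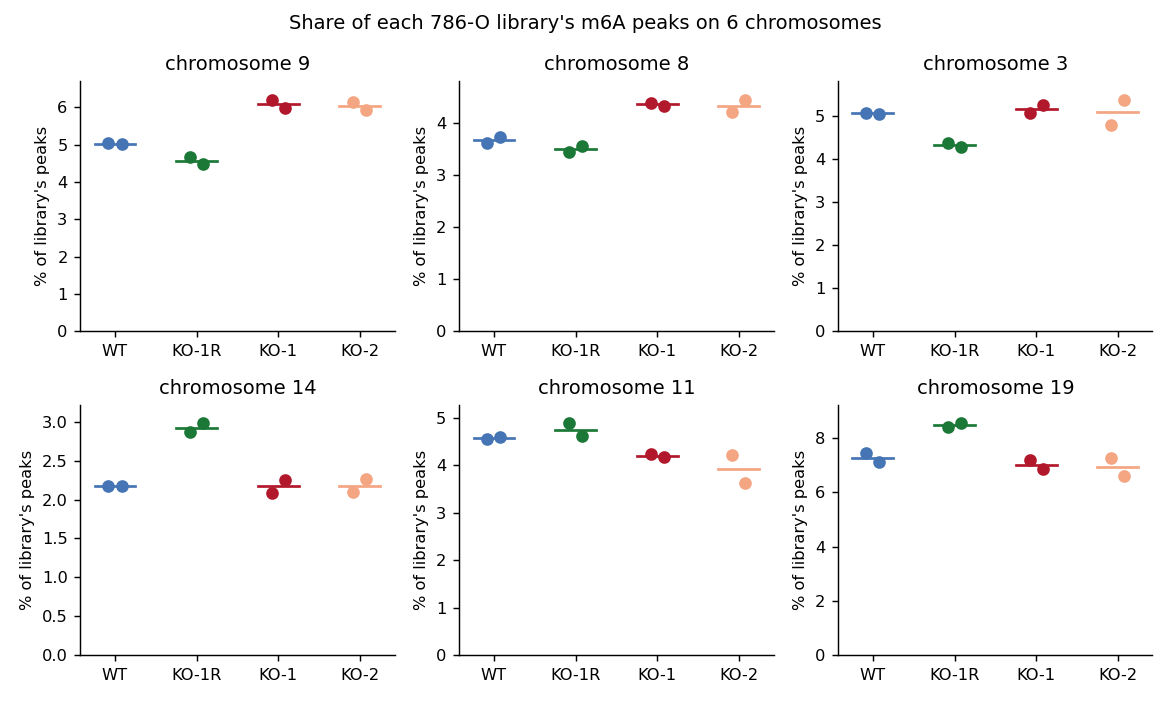
Share of each 786-O library's m6A peaks, in %, on the chromosomes with the highest (9, 8 and 3) and lowest (14, 11 and 19) log2 ratio of lost to gained regions. Points are libraries and bars are means of 2; on chromosome 9 WT and rescue lie at 4.48% to 5.04% and both knockout clones at 5.92% to 6.21%, and on chromosome 14 the rescue lies above the other 6 libraries.

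Within chromosomes, windows of 10 Mb with at least 100 regions showed where the lost and gained regions concentrated. In 188 of 220 windows lost regions outnumbered gained ones and in 24 the reverse held. The highest lost share, 18.8%, was in the window from 80 to 90 Mb of chromosome 8, with 27 of 144 regions lost and 0 gained, and 44 and 43 peaks in the rescue against 97 and 96 in the parent. Chromosome 4 from 120 to 130 Mb followed with 27 of 146 lost and 1 gained. On chromosome 9, 49 of 297 regions were lost and 2 gained between 110 and 120 Mb, the window that holds ASTN2, where the rescue had 107 and 92 peaks and the parent 204 and 214. The windows from 60 to 70 Mb and from 70 to 80 Mb of chromosome 9 had lost shares of 15.4% and 18.05%.
The highest gained shares were 7.98% on chromosome 13 from 110 Mb on, 6.98% on chromosome 5 from 40 to 50 Mb and 6.81% on chromosome 11 from 10 to 20 Mb. On chromosome 14 the windows from 50 to 60 Mb and from 70 to 80 Mb, the second of which holds NRXN3, had 12 and 14 gained against 3 and 6 lost regions. In the window at 50 to 60 Mb the rescue had 122 and 114 peaks and the parent 74 and 93. The windows were named after their values were seen.

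The other 12 libraries show how far the gained and lost regions followed SETD2. In WT, 39.9% and 37.8% of the gained and 36.3% and 45.7% of the lost regions were called. In SETD2KO-2 the shares were 36.5% and 28.7% of the gained and 65.3% and 39.2% of the lost regions. Regions called in 1 rescue and 1 parent library are on neither side of the rule. Of these, WT called 39.6% and 46.7% and SETD2KO-2 called 56.6% and 30.5%. In WT the shares of gained regions thus lay near or below this reference. The log2 ratio of the share of gained to the share of lost regions was -0.07 ± 0.29 in WT and -0.65 ± 0.28 in SETD2KO-2 (SD, n = 2 each). WT was higher by 0.58, with p = 0.33 in the two-sided exact permutation test, the smallest this design allows, and 0.33 after Benjamini-Hochberg adjustment over the 2 recall tests. The sign rested on SETD2KO-1R replicate 1, without which the difference was -0.17. With equal peak numbers the difference was 0.515 and in the upper 50% by score 0.442. Both had an exact permutation p of 0.67, so the libraries of WT and SETD2KO-2 then overlapped.
In RPTEC the ratio was 0.18 ± 0.31 in the 4 SETD2-expressing and -0.09 ± 0.39 in the 4 SETD2KO libraries (SD). The difference of 0.27 had an exact permutation p of 0.314 (adjusted p = 0.33), where 0.029 is the smallest possible, so it was within the spread between libraries. The test treated the libraries of a line as independent, which they are not. By line the mean ratio was 0.38 in WT, -0.01 in SETD2KO-1R, -0.27 in SETD2KO-1 and 0.10 in SETD2KO-2, so the lines did not separate by SETD2. Gained regions were called in 21.4% to 33.2% and lost regions in 15.9% to 38.3% of cases in the RPTEC libraries. The library with the fewest peaks, SETD2KO-2 replicate 2 with 19249, called the fewest of both.

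Region by region, 116 gained regions (7.29%, Wilson 95% interval 6.11% to 8.67%) were called in both WT and neither SETD2KO-2 library, and 50 (3.14%, 2.39% to 4.12%) the other way. Of the lost regions, 383 (9.81%, 8.92% to 10.8%) were called in both SETD2KO-2 and neither WT library, and 110 (2.82%, 2.34% to 3.38%) the other way. Regions called in 1 rescue and 1 parent library, which the rule puts on neither side, were at 298 (4.58%) and 292 (4.48%) of 6512. These intervals cover counting error alone and neighbouring regions of a gene are not independent. A larger part did not separate the lines. None of the WT and SETD2KO-2 libraries called 440 gained (27.7%) and 509 lost regions (13.0%), against 16.9% of the regions called in 1 rescue and 1 parent library. None of the 12 libraries called 251 gained (15.8%) and 269 lost regions (6.89%), against 8.98%. Gained regions thus lay above and lost regions below these reference shares.

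**Figure D5:**
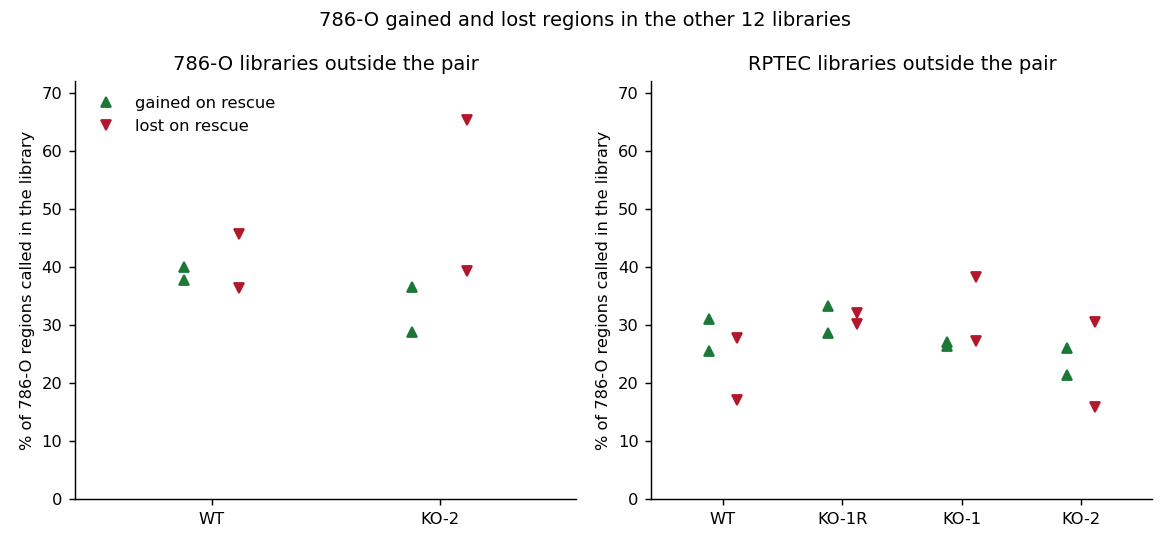
Share of the 1591 gained (triangles up) and 3904 lost (triangles down) regions of the 786-O pair that each of 12 other libraries called, in %, by line. SETD2KO-2 calls 39.2% and 65.3% of lost regions against 28.7% and 36.5% of gained regions, while in WT both classes lie between 36.3% and 45.7%.

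Gene lists of m6A, chromatin, kidney and metabolic functions were set beside the background of 9.92% of genes with a gained and 20.1% with a lost region. In 12 of 17 lists more members had a lost than a gained region, and with lists cut to equal length this held in 6. A gene with many regions has more that can meet the rule, so the shares of regions are given too: over all genes 2.54% of regions were gained and 6.14% lost, and in the 17 lists 0% to 4.08% and 1.97% to 6.16%.
Of 9 genes of the m6A writer complex with a region, 1 had a gained region, VIRMA, the scaffold subunit, and 1 had lost regions, ZC3H13, a nuclear anchor of the complex, which lost 2. METTL3 and METTL14 had 1 and 2 regions and none that met the rule. Peak numbers were 7 and 8 against 6 and 9 for VIRMA and 7 and 6 against 8 and 7 for ZC3H13, so they overlapped or met. Of 14 m6A readers and erasers, HNRNPC, IGF2BP2 and the nuclear reader YTHDC1 each had 1 gained region, and FMR1 and the demethylase FTO each had 1 lost region. Of 22 enzymes and readers of H3K36 methylation, 3 had a gained region (ASH1L, KDM2A and KDM2B) and 3 a lost one (BRPF1, KDM4A and NSD3).
Among 19 ccRCC tumour suppressors and mTOR pathway genes, 2 had a gained and 6 a lost region. BAP1, a deubiquitinase mutated in ccRCC, lost 3 of its 5 regions and had 4 and 4 peaks in the parent against 2 and 0 in the rescue, with 2 and 6 in WT and 3 and 0 in SETD2KO-2. PBRM1, another chromatin gene mutated in ccRCC, had 1 gained region at 4 and 2 against 2 and 3 peaks. RPTOR, the mTOR complex scaffold, had 28 and 16 peaks in the rescue and 10 and 14 in the parent, although its 1 member region was a lost one.
Of 26 hypoxia-inducible genes, 5 had a gained and 4 a lost region. VEGFA, the angiogenic growth factor, had 1 gained region at 7 and 4 against 3 and 3 peaks, and KDM3A, a histone demethylase, lost 2 regions at 1 and 1 against 4 and 4 peaks.

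None of 21 fatty acid oxidation genes with a region had a gained region and 6 (28.6%) had a lost one, but 6 of their 100 regions were lost, near the 6.14% over all genes. HADHB, a subunit of the mitochondrial trifunctional protein, had 1 peak in each parent and none in either rescue library. It had 0 and 1 in WT and none in SETD2KO-2. ACSL3, an acyl-CoA synthetase, CRAT, ECI1, HSD17B10 and HSDL2 each lost 1 region. Of 35 genes of oxidative phosphorylation and the TCA cycle, 4 had a gained and 3 a lost region. DLST, a subunit of the oxoglutarate dehydrogenase complex, had 1 peak in each rescue and WT library and none in the 4 knockout libraries. SUCLG1, a succinate-CoA ligase subunit, had 1 in each parent library and none in the rescue, with 1 and 0 in WT and none in SETD2KO-2. Of 27 genes of cholesterol and lipid synthesis, 3 had a gained and 6 a lost region, and SREBF2, the master regulator of sterol synthesis, had 2 gained and 1 lost.
Of 33 genes of the epithelial-mesenchymal transition, 5 (15.2%) had a gained and 11 (33.3%) a lost region. They held a median of 6 regions against 3 over all genes, and of their 257 regions 2.72% were gained and 5.84% lost, near the shares over all genes. COL4A2, a basement membrane collagen, lost 4 regions at 18 and 18 peaks in the parent against 13 and 7 in the rescue. TGFBR2, a TGF-beta receptor, had 2 and 1 peaks in the parent and none in the rescue, with 1 and 2 in WT and 2 and 2 in SETD2KO-2. CCN2 had 1 in each rescue and none in either parent library, with 0 and 1 in WT and 1 and 1 in SETD2KO-2.
Of 13 kidney lineage transcription factors, 4 had a lost region and 1, PAX8, a gained one. MAF had 7 and 7 peaks in the parent against 2 and 1 in the rescue, with 7 and 5 in WT. Of 39 repair genes, 4 had a gained and 10 a lost region, with RAD51B losing 2 at 7 and 11 peaks in the parent against 7 and 5 in the rescue. Of 31 splicing factors, 1, SRRM2, had a gained and 5 a lost region, and SRRM1 and SRPK2 lost 2 each.
Of 22 receptor tyrosine kinases, 4 had a gained and 5 a lost region. PDGFRB, a platelet-derived growth factor receptor, had 4 and 2 peaks in the rescue and none in the parent, with 0 and 1 in WT and 1 and 1 in SETD2KO-2.

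Of 443 zinc finger genes with ZNF symbols, 52 (11.7%) had a gained and 58 (13.1%) a lost region. Chromosome 19 held 222 of them, with a gained region in 12.2% and a lost one in 10.8%, and of the 694 other genes on that chromosome 14.1% and 17.1% had one. Elsewhere the shares of ZNF genes were 11.3% and 15.4%. ZNF462 on chromosome 9 lost 4 regions at 14 and 11 against 6 and 5 peaks. Of 214 solute carriers, 12 (5.61%) had a gained and 28 (13.1%) a lost region. SLC1A1, a glutamate transporter of the renal tubule, had 2 gained regions on chromosome 9, with 2 and 3 peaks in the rescue, 3 and 3 in WT, none in the parent and 0 and 1 in SETD2KO-2. Of 61 cytosolic ribosomal protein genes, 3 (4.92%) had a gained and 5 (8.20%) a lost region. These genes held a median of 1 region each, against 3 over all genes.

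A list of 14 genes was taken from those the study named for 786-O, which it chose on these samples, so their direction is no independent evidence. The study named others for 786-O on their expression, DLST with its gained region among them. All 14 had a region, none had a gained one and 4 (28.6%) had a lost one: CHPF, ECI1, HM13 and HSDL2, with 1 each. CHPF, a chondroitin synthesis enzyme, had 4 and 5 peaks in the parent and 3 and 1 in the rescue. LY96, the co-receptor of TLR4, had 3 and 4 peaks in the parent, 3 and 3 in SETD2KO-2, 1 and 0 in the rescue and none in WT, without any region that met the rule. SLC29A3, a nucleoside transporter, had 7 and 5 in the parent, 8 and 4 in SETD2KO-2, 6 and 2 in the rescue and 2 and 2 in WT. ACADVL, which opens mitochondrial fatty acid oxidation, had 5 and 4 in the parent and 3 and 0 in the rescue. DNMT3B had 3 and 2 against 2 and 0, ISCA1 had 1 and 1 against 1 and 0, and EHHADH had 3 and 1 against 1 and 1. DECR1 had 4 and 3 against 4 and 4, SERPINH1 had 4 and 5 against 4 and 3 and TNFRSF12A had 2 and 2 against 2 and 1, so the parent and rescue libraries met or overlapped in these.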

How the data were processed

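MeRIP-seq IP libraries of 786-O SETD2KO-1R and SETD2KO-1 were compared, 2 per line, grouped by the sample titles. Per the labels the authors used STAR, HTSeq and MACS2 on hg38. Signal was scaled to E. coli spike-in RNA, and each IP library had its own peak list, called against its Input. The deposited score of a peak is a whole number of unstated scale and ranked peaks within a list only, and the other deposited value columns of the lists hold 0 and were not used. No read counts are in the lists, so depth is unknown. The shortest peaks of the 4 lists measured 272 to 288 bp.

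Peaks were merged at 1 bp of overlap (checked with bedtools 2.31.1) and set against 20052 protein-coding gene bodies of RefSeq GRCh38.p14, without exons. The lists have no strand, so overlapping genes cannot be told apart, and 4.84% of gained and 3.07% of lost regions lay in several genes. Strand was known for 15842 genes. Groups were compared by two-sided exact permutation tests, adjusted by Benjamini-Hochberg over the 2 recall tests. The members and gene lists were chosen with earlier results of these data known.

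Named were SETD2, 14 of the genes the study named, per direction the 8 genes with the most member regions (ties by higher mean rank of score), the 6 genes called on 1 side with the most peaks and the 5 regions ranking highest, the 3 chromosomes highest and lowest in log2 lost over gained, and list members as examples. Values of some list members are not reported here. Alternatives were the upper 50% by score, equal peak numbers, merging within 100 bp, 50% coverage, a minimum length of 288 bp, merging over 8 lists, bins of 200 bp, midpoints or 50 bp at genes, each library left out and a block by replicate number. Leaving out chromosomes 3, 8 and 9 was chosen after seeing the data. Steps were tested on simulated data. Tables were handled in pandas 2.3.3 and NumPy 2.4.6 (Python 3.11.15), tests were run in SciPy 1.17.1, and plots were drawn with Matplotlib 3.10.9.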

Additional observations from a re-analysis of the deposited data

Results flagged for a closer look

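The share of peaks on 3 chromosomes moved one way between parent and rescue in 786-O and the other way in RPTEC, with no overlap between libraries in either cell line. On chromosome 7 the difference, rescue minus parent in percentage points, came to -0.083 for 786-O against 0.422 for RPTEC. On chromosome 22 it was -0.204 in 786-O and 0.325 in RPTEC, and on chromosome 18 it was 0.103 in 786-O and -0.134 in RPTEC. The difference between the cell lines was not tested.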

How the results depend on the processing

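Merging within 100 bp, 50% coverage, regions merged over 8 lists, midpoints and 50 bp of overlap at genes left the counts of regions and genes within 1.5 times. The upper 50% by score gave 865 gained and 1901 lost regions (log2 lost over gained 1.14) in 727 and 1403 genes, and bins of 200 bp gave 4849 and 10143 (1.06). Equal peak numbers gave 2544 lost regions and a log2 value of 0.45, 415 genes called in the rescue alone, 6 lists with more lost than gained members, and log2 values of -0.28 on chromosome 11 and -0.56 on chromosome 19. A minimum length of 288 bp gave log2 values of 0.38 in all, -0.66 on chromosome 11 and -0.67 on chromosome 19. Without chromosomes 3, 8 and 9 the log2 value was 1.07.

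Leaving out 1 library gave 2756 to 8237 gained and 5214 to 12445 lost regions (log2 -0.66 to 2.17), in 2010 to 4442 and 3096 to 5429 genes. Genes called on 1 side numbered 535 to 646 for the rescue and 691 to 1345 for the parent. Chromosomes with more lost than gained regions numbered 3, without SETD2KO-1R replicate 2, to 23. The WT minus SETD2KO-2 recall difference was -0.17, without SETD2KO-1R replicate 1, to 0.78, and the RPTEC one 0.13 to 0.44. The log2 values ran from -1.40 to 1.41 on chromosome 11, -1.95 to 1.01 on chromosome 14 and -1.51 to 1.12 on chromosome 19, and from 0.08 to 3.03 on chromosome 3, 0.43 to 3.14 on chromosome 8 and 0.69 to 3.47 on chromosome 9. Counts rise when a library is left out because fewer calls are asked of a region.

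Same-numbered libraries of parent and rescue deviated from their line's mean with r = 0.020 over 59337 regions, so the numbers were not taken to pair them. Among the 786-O lines r ran from -0.058, for SETD2KO-1R and WT, to 0.143, for SETD2KO-1R and SETD2KO-2. The replicate block, a mean over the 2 same-numbered pairs, gave 11190 gained and 16612.5 lost regions (log2 0.53) in 5468 and 6592.5 genes, since 1 library a side then decides a call. Under the block the recall differences stayed 0.58 (exact permutation p = 0.5) and 0.27 (p = 0.25), and the log2 peak number -0.25 (p = 0.5). The depth of each library is unknown, so a region missing from a list may lie just under the peak caller's threshold.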
